A study of Homo sapiens with 2 samples.

Results

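The genes described here encode the collagen chains and the laminin chains, the main structural proteins of the extracellular matrix. They were chosen by symbol alone: every gene whose symbol was COL, a number, A and a number, or LAMA, LAMB or LAMC and a digit. In all, 56 of the 60664 genes in the count files met this rule, 44 of them collagens and 12 laminins, and all were annotated as protein-coding. The rule uses no measured value.

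RNA-seq was done on 2 libraries of HEK293T, an established line of human embryonic kidney cells that were transformed with adenovirus sequence and later given the large T antigen of SV40. The study maps R-loops, in which RNA pairs with 1 strand of a DNA duplex and the other strand is displaced, and these libraries give the RNA levels of the same line. Both libraries carry the genotype WT and the treatment untreated, with no allele, transgene or agent named, so there was 1 group with n = 2 and no contrast between conditions. The cell line entry of replicate 2 reads HEK294T while its title reads HEK293T, and the title was followed. The labels do not say that the replicates came from separate cultures, so the SD over 2 libraries may be technical. The cells were grown without tissue around them and measured in bulk, so fewer cells with a transcript and less of it per cell cannot be told apart.

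Fibrillar collagens pack side by side into the banded fibrils of bone, cartilage, tendon and skin. Type IV collagens instead join end to end into a mesh, and laminins, each made of 1 alpha, 1 beta and 1 gamma chain, form a second mesh. Both lie in the basement membrane, the thin sheet under epithelia and around capillaries and muscle fibres. In kidney, the laminin of the chains LAMA5, LAMB2 and LAMC1 and the type IV collagen of COL4A3, COL4A4 and COL4A5 build the mature membrane of the glomerulus, the filter of the nephron. The other collagens include type VI, which forms beaded filaments, the fibril-associated collagens (FACIT), transmembrane collagens and the multiplexins of the basement membrane zone.

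Depth was similar in both libraries, with 18011638 assigned counts in replicate 1 and 18575058 in replicate 2. A count of 0 therefore allowed up to 0.167 and 0.162 CPM (counts per 1000000 assigned counts), reading 0 as up to 3 counts. All 9 genes chosen as checks for HEK293T cells were detected, against 65.9% of all protein-coding genes. Among them were UCHL1 at 334 ± 5.81 TPM (transcripts per 1000000, SD, n = 2) and VIM at 218 ± 50.4. Whether these 9 genes tell this line from other cells was not tested. The value of VIM is uncertain, since 24.3% of its exonic bases also belong to other genes. Of 10 fibroblast markers, 4 were detected (40%, against 65.9% of all protein-coding genes). The summed level of the 10 markers was 19.1 TPM in each library, led by FBLN1 at 10.9 ± 0.273 TPM, S100A4 at 5.77 ± 0.110 and LUM at 1.25 ± 0.358, with FBN1 at 162 and 170 counts. The other 6 were not detected: DCN, FAP, POSTN and THY1 had 0 counts in both libraries, PDGFRB had 3 and 2, and PDGFRA had 12 and 13. TPM divides counts by the gene's summed exon length and is used where 2 genes are compared, unless another measure is named. Reverse transcription started from an oligo(dT) primer, and whether counts rose with gene length here was not tested. Folds between genes of unlike length therefore depend on the measure.

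Type IV collagens and laminins, the basement membrane types, held 55.5% ± 0.944 (SD, n = 2) of the counts of all 56 genes and 43.2% ± 0.925 of their TPM, and fibrillar collagens held 8.52% ± 0.082 and 7.70% ± 0.088. Detection required at least 1 CPM in each library, which is about 18 counts. By that call 31 of the 56 genes (55.4%) were detected, against 65.9% of all protein-coding genes and 27.7% of all genes. Among type IV collagens and laminins 14 of 18 were detected, and among fibrillar collagens 6 of 11. All 56 genes together held 0.0649% of counts in replicate 1 (exact 95% binomial interval 0.0637 to 0.0661) and 0.0608% in replicate 2 (0.0597 to 0.0620). These intervals, like the floors, cover counting error only, because the reads carry no molecular identifiers and copies of 1 molecule may be counted more than once.

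A few chains made up most of that amount. COL6A1, COL6A2, LAMB2, LAMA5 and LAMC1 held 64.9% ± 0.271 (SD, n = 2) of the TPM summed over the 56 genes. These 5 genes were the ones at 10 TPM or more in both libraries, while 21 genes reached 1 TPM in both. The median protein-coding gene stood at 2.88 TPM, and 11 of the 56 genes lay above it. At the other end, 17 genes had 10 counts or fewer in both libraries and 3 had none at all.

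**Figure D1:**
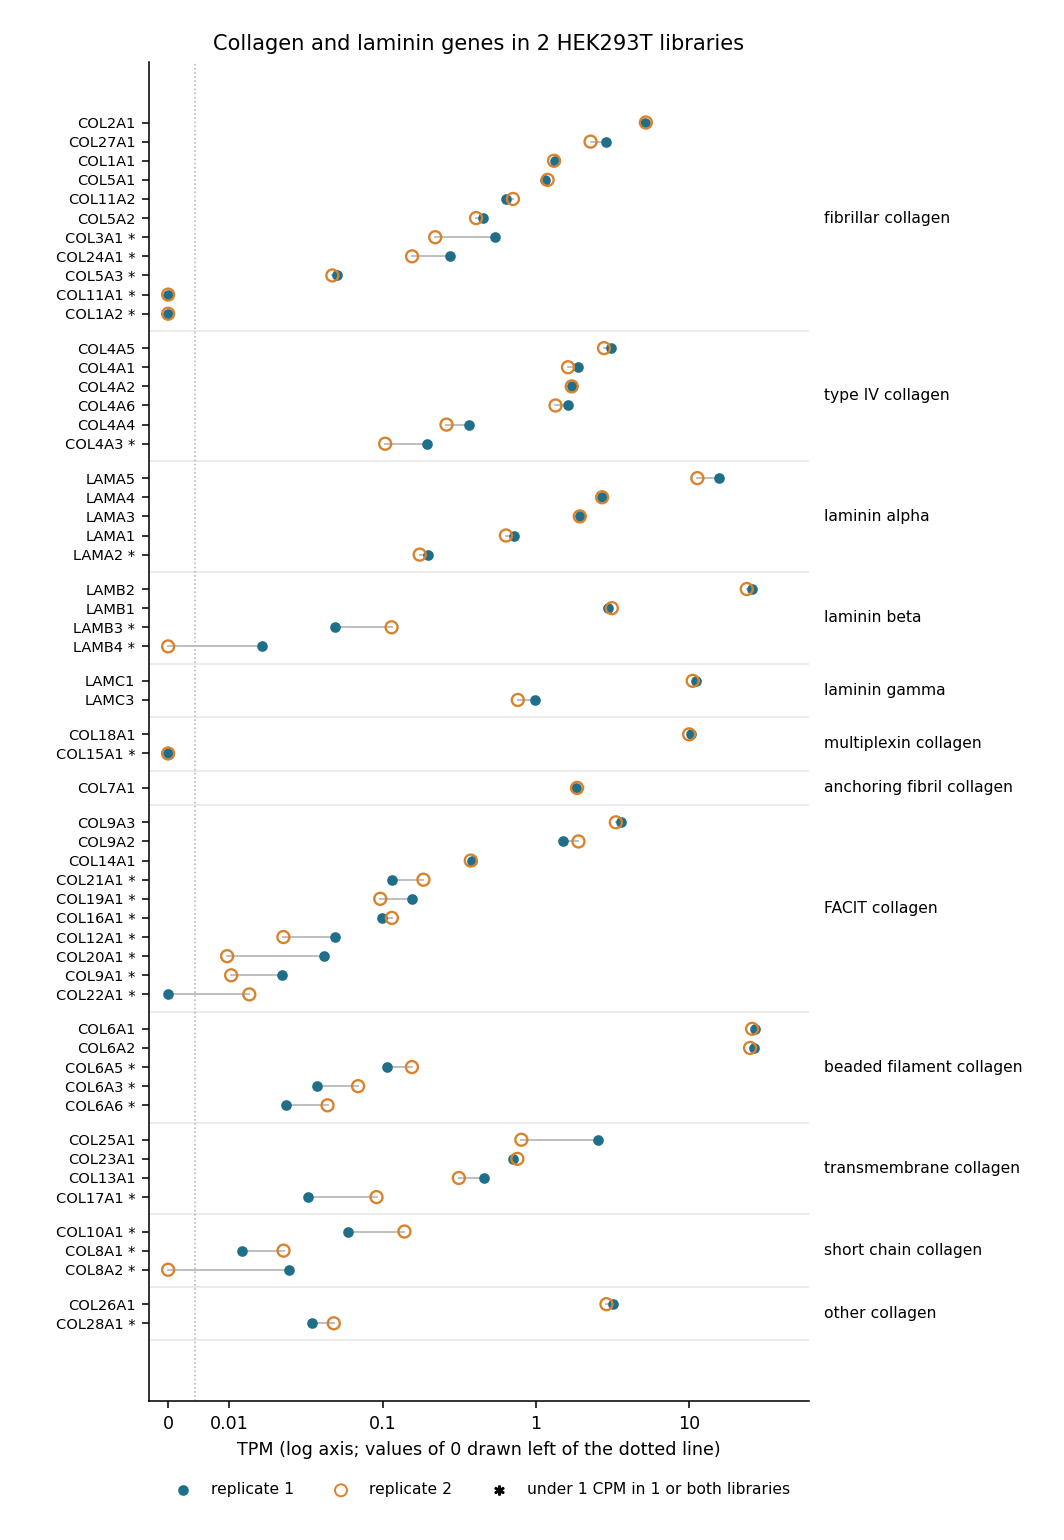
TPM of the genes reported here, by class, on a log axis, with filled points for replicate 1 and open points for replicate 2; values of 0 are drawn left of the dotted line and an asterisk marks genes under 1 CPM in 1 or both libraries. The points of COL6A1, COL6A2 and LAMB2 lie furthest right, and those of COL1A2, COL11A1 and COL15A1 at 0.

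Ordered by mean TPM, the 31 detected genes formed 30 neighbouring pairs, and in 15 of them the ranges of the 2 libraries overlapped. COL6A1, COL6A2 and LAMB2 at the top could not be ordered by this measure. LAMB2, LAMA5, LAMC1, COL18A1, COL2A1 and COL9A3 followed each other without overlap. The long middle stretch from COL7A1 through COL4A1, COL4A2, COL9A2 and COL25A1 to COL4A6, between 1.84 and 1.49 TPM, overlapped at every step.

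Of the 12 laminins, 9 were detected (75%, against 65.9% of all protein-coding genes). Laminins were the class with the highest summed level, at 58.8 ± 4.88 TPM (SD, n = 2). They held 46.6% ± 0.888 of all counts assigned to the 56 genes. At least 1 alpha, 1 beta and 1 gamma chain was above 10 CPM in each library.

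Among the alpha chains, which carry the sites bound by cell-surface receptors, LAMA5 stood highest. LAMA5 (ENSG00000130702, GRCh38 chr20:62307955-62367312, minus strand) had 1951 counts in replicate 1 and 1515 in replicate 2, or 15.7 and 11.3 TPM. It was the gene of the whole set with the most counts in replicate 1. It shares 244 exonic bases with the opposite-strand gene ADRM1, which had 3911 and 3625 counts, and the part of those reads in its value was not tested. LAMA4, typical of vessels and muscle, had 284 and 304 counts and 2.71 ± 0.012 TPM. LAMA3, the alpha chain of epithelial anchoring laminins, had 246 and 263 counts and 1.94 ± 0.010 TPM. LAMA5 exceeded LAMA4 5.76-fold in replicate 1 and 4.18-fold in replicate 2. LAMA1, the alpha chain of early embryonic membranes, had 99 and 95 counts and 0.677 ± 0.055 TPM. In LAMA1, 11.1% of exonic bases are shared with other genes, the second highest share of the 56. LAMA2, the main muscle chain, missed the detection call narrowly with 18 and 17 counts, or 0.999 and 0.915 CPM.

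Of the beta chains, LAMB2 and LAMB1 were detected and LAMB3 and LAMB4 were not. LAMB2 (ENSG00000172037, chr3:49121114-49133118, minus strand), the beta chain of the glomerulus and the neuromuscular junction, had 1526 and 1528 counts, or 25.5 and 23.7 TPM. LAMB1 (ENSG00000091136, chr7:107923799-108003213, minus strand), the widespread beta chain of embryonic tissue, had 476 and 546 counts, or 2.94 and 3.13 TPM. The level of LAMB2 was 8.13-fold ± 0.780 that of LAMB1 by summed exon length. The size of that gap depended on the length used. The merged exons of LAMB1 span 18592 bases and its longest coding transcript 5766, and with the latter length the fold was 3.05 ± 0.293, still above 1 in both libraries. LAMB1 also shares 300 exonic bases with the opposite-strand gene DLD, whose counts were 1577 and 1632. LAMB3, a beta chain of skin, had 2 and 5 counts, and LAMB4 had 1 and 0.

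Of the gamma chains, LAMC1 stood highest. LAMC1 (ENSG00000135862, chr1:183023420-183145592, plus strand), which is part of most laminins, had 817 and 835 counts, or 11.1 and 10.5 TPM. LAMC3 had 77 and 64 counts and 0.875 ± 0.159 TPM.

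The 3 laminin chains with the highest TPM were therefore 1 of each kind, though not at equal levels. LAMB2 stood at 2.27-fold ± 0.033 the level of LAMC1. LAMA5 stood at 1.41-fold and 1.07-fold the level of LAMC1 in the 2 libraries. LAMA5 reached 0.545-fold ± 0.097 of LAMB2 in TPM, although in replicate 1 it had more counts. LAMB1 stood at 0.281-fold ± 0.023 of LAMC1 by summed exons and 0.846-fold ± 0.069 by the longest coding transcript.

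**Figure D2:**
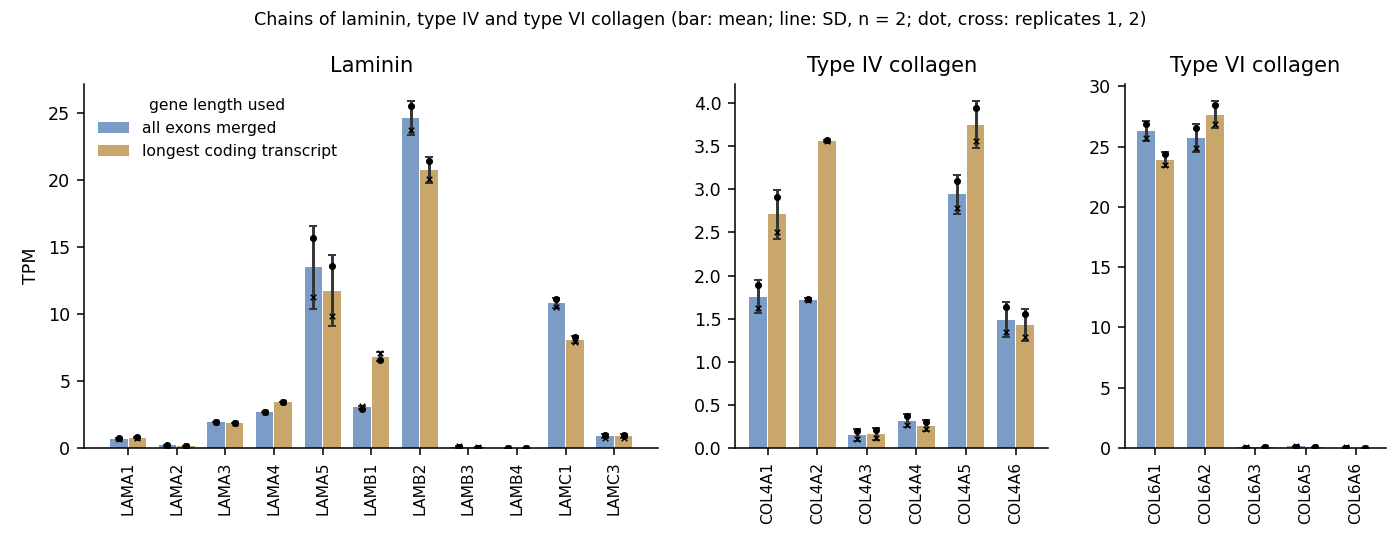
TPM of laminin, type IV and type VI chains; blue bars use summed exon length and tan bars the longest coding transcript, lines show the SD (n = 2), dots replicate 1 and crosses replicate 2. LAMB2 stays highest of the laminins with both lengths, while LAMB1, COL4A1 and COL4A2 shift upward with the transcript length.

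LAMB1 and LAMB4 are neighbours on chromosome 7, 20334 bases apart on the same strand, with 1 of them detected and the other at 1 count or fewer. Of 9 neighbouring pairs of these genes within 250 kb, 4 had both genes detected, 2 had neither and 3 had only 1, among them LAMB1 with LAMB4. The same shares were not counted for neighbouring pairs of other genes, so these counts say nothing particular about collagens and laminins. A link of base composition with level was not tested in these pairs. In COL4A4, detected, and COL4A3, not detected, another such pair, the promoter windows described further on held 29 and 24 CpG dinucleotides. The 100 bases before the starts of LAMB1 and LAMB4 are shown because they differ in base composition. They are read 5′ to 3′ on the minus strand of GRCh38, at chr7:108003214-108003313 for LAMB1 and chr7:108130362-108130461 for LAMB4, and no annotated exon of the count files overlaps them. Capitals mark the GC box GGGCGG or its complement CCGCCC, and the CCAAT box or its complement ATTGG.
LAMB1: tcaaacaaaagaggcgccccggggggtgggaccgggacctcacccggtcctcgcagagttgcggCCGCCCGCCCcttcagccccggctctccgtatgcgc
LAMB4: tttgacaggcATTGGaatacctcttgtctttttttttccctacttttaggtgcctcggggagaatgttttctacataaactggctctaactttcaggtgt
The LAMB1 stretch holds 11 CpG dinucleotides, a GC content of 72% and 2 overlapping matches to the GC box. The LAMB4 stretch holds 1 CpG, a GC content of 40% and 1 match to the CCAAT box. A match is a description of these letters, and binding of a factor was not measured.

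Type IV collagens were detected in 5 of 6 cases (83.3%, against 65.9% of all protein-coding genes), at low levels, with a median of 1.60 TPM. Their sum was 8.37 ± 0.778 TPM (SD, n = 2). The 6 genes are arranged as 3 head-to-head pairs, each pair starting from a short stretch of DNA and reading outward. In the count files, the spans of COL4A1 and COL4A2 overlap (a gap of -1346 bases), while gaps of 170 and 340 bases part the other pairs.

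COL4A1 and COL4A2, which together form the type IV collagen found in nearly all basement membranes, had similar levels. COL4A1 (ENSG00000187498, chr13:110148963-110307157, minus strand) had 242 and 223 counts, or 1.89 and 1.62 TPM. COL4A2 (ENSG00000134871, chr13:110305812-110513209, plus strand) had 291 and 310 counts, or 1.73 and 1.71 TPM. The ratio of COL4A1 to COL4A2 was 1.09 and 0.945 in the 2 libraries, so the libraries did not share an order. With the longest coding transcript it was 0.761 ± 0.078, below 1 in both. In the protein, 2 COL4A1 chains join 1 COL4A2 chain.

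COL4A5 and COL4A6 sit on the X chromosome and form the type IV collagen of smooth muscle and Bowman's capsule, among other places. COL4A5 (ENSG00000188153, chrX:108439838-108697545, plus strand) was the highest type IV gene, with 321 and 310 counts, or 3.10 and 2.78 TPM. COL4A6 (ENSG00000197565, chrX:108155607-108439497, minus strand) had 132 and 117 counts, or 1.63 and 1.34 TPM. The level of COL4A5 was 1.99-fold ± 0.120 that of COL4A6, and 1.68-fold ± 0.056 that of COL4A1. With the longest coding transcript these folds were 2.65 ± 0.160 and 1.39 ± 0.046.

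The pair COL4A3 and COL4A4, the glomerular partners of COL4A5, stood lowest. COL4A4 (ENSG00000081052, chr2:227002714-227164453, minus strand) had 38 and 29 counts, or 0.369 and 0.261 TPM. COL4A3 (ENSG00000169031, chr2:227164624-227314792, plus strand) had 21 and 12 counts and reached 1 CPM in replicate 1 alone. It shares 838 exonic bases, 6.82% of its length, with the opposite-strand transcript MFF-DT, which had 201 and 271 counts. COL4A5 exceeded COL4A3 15.8-fold in replicate 1 and 26.7-fold in replicate 2.

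The start regions of the 3 pairs differed in base composition, as 100 bases of each show. The stretches are read 5′ to 3′ on the plus strand of GRCh38, each ending just before a plus-strand gene or, for COL4A1 and COL4A2, starting right after the 5′ end of COL4A1. They lie at chr13:110307158-110307257, chrX:108439738-108439837 and chr2:227164524-227164623, and no annotated exon of the count files overlaps them. Capitals mark the same 2 motifs as above.
COL4A1 to COL4A2: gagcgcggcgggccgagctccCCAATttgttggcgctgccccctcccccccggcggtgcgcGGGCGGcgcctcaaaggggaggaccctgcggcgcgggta
COL4A5: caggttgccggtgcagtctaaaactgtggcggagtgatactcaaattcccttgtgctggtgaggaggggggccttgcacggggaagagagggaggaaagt
COL4A3: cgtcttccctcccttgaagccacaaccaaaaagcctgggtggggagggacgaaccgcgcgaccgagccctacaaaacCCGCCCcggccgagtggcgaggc
The first stretch holds 14 CpG dinucleotides and both a CCAAT box and a GC box. The COL4A5 stretch holds 3 CpG and neither motif within these 100 bases. The COL4A3 stretch holds 10 CpG and 1 GC box. Between the RefSeq start sites of each pair lie 126 bases with 20 CpG for COL4A1 and COL4A2, 379 bases with 12 CpG for COL4A6 and COL4A5, and 418 bases with 32 CpG for COL4A4 and COL4A3. The full span of COL4A6 and COL4A5 holds 3 matches to the CCAAT box and none to the GC box. That of COL4A4 and COL4A3 holds 2 matches to the GC box and none to the CCAAT box. That of COL4A1 and COL4A2 holds 1 match to each. In the promoter windows of equal length described further on, COL4A1 and COL4A2 had 45 CpG each, COL4A4 29, COL4A3 24, COL4A5 8 and COL4A6 7. The order of CpG among the pairs was not the order of their levels.

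Fibrillar collagens had a median of 0.431 TPM and a sum of 12.4 TPM in replicate 1 and 11.5 in replicate 2. COL2A1 (ENSG00000139219, chr12:47972967-48004554, minus strand), the collagen of cartilage, was the highest, with 297 and 326 counts, or 5.11 and 5.21 TPM. COL27A1, a fibrillar collagen of developing cartilage, had 348 and 299 counts, or 2.85 and 2.27 TPM. COL5A1 and COL5A2 form type V collagen, which starts and limits fibril growth. COL5A1 had 112 and 125 counts and 1.17 ± 0.030 TPM, and COL5A2 had 29 and 28 counts and 0.431 ± 0.033 TPM. The level of COL5A1 was 2.73-fold ± 0.279 that of COL5A2.

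The chains of type I collagen, the main collagen of bone and skin, were unequal. COL1A1 (ENSG00000108821, chr17:50184101-50201632, minus strand) had 104 and 111 counts and 1.32 ± 0.008 TPM. COL1A2 (ENSG00000164692, chr7:94394895-94431227, plus strand), its partner chain, had 0 counts in both libraries. Against the floor of 3 counts per library, COL1A1 was at least 41.6-fold higher in replicate 1 and at least 44.4-fold higher in replicate 2. With the longest coding transcript the bounds were 27.9 and 29.8. Type XI collagen of cartilage showed a similar split, since COL11A2 had 41 and 49 counts and 0.673 ± 0.050 TPM while COL11A1 had 0 in both. COL3A1, the collagen of vessel walls and soft organs, had 32 and 14 counts and COL24A1 had 23 and 14, so each reached 1 CPM in replicate 1 alone. COL5A3 had 3 counts in each library.

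Fibrillar and basement membrane types were compared as groups of genes, undetected members included. The median of log2(TPM + 0.1) was lower for the 11 fibrillar genes than for the 18 type IV and laminin genes by 1.47 in replicate 1 and by 1.63 in replicate 2 (difference on the log2 scale). On the mean TPM the difference was -1.68, and it narrowed to -0.535 among detected genes alone and to -0.862 with a pseudocount of 1. In summed TPM, basement membrane genes exceeded fibrillar genes 5.61-fold ± 0.184 (SD, n = 2). Laminins alone gave most of that sum, at 4.91-fold ± 0.155 the sum of the fibrillar genes. Type IV collagens alone did not exceed them in summed TPM, since fibrillar over type IV was 1.43 ± 0.060. The latter ratio depended on the scale, at 0.983 ± 0.020 with the longest coding transcript and 0.957 ± 0.015 in summed CPM, which takes no account of length. Type IV genes are longer, with a median summed exon length of 12077.5 bases against 9007 for fibrillar genes. Genes of a class are not replicates, so no test was made between classes.

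**Figure D3:**
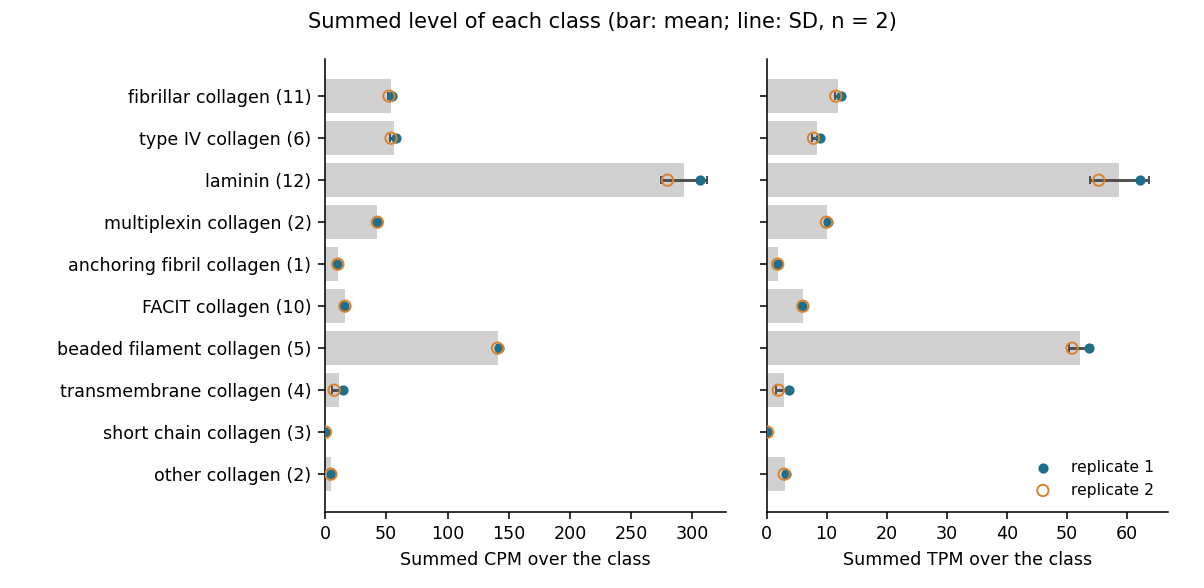
Summed CPM (left) and summed TPM (right) of each class, with the number of genes in brackets; bars show the mean, lines the SD (n = 2) and points the 2 libraries. Laminins and beaded filament collagens form the longest bars on both scales, while fibrillar and type IV collagens change order between the scales.

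Beaded filament collagen, type VI, was second to the laminins with 52.2 ± 1.94 TPM, nearly all from 2 of its 5 genes. COL6A1 (ENSG00000142156, chr21:45981770-46005050, plus strand) had 1298 and 1336 counts, or 26.9 and 25.7 TPM. COL6A2 (ENSG00000142173, chr21:46098112-46132848, plus strand) had 1236 and 1248 counts, or 26.6 and 24.9 TPM. The pair lies 93061 bases apart, and the ratio of COL6A1 to COL6A2 was 1.02 ± 0.014. With the longest coding transcript it was 0.866 ± 0.012. COL6A1 was at the 84.3 percentile of protein-coding genes by TPM.

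The chain that normally joins them in type VI collagen, COL6A3, stood far lower. COL6A3 (ENSG00000163359, chr2:237324003-237414328, minus strand) had 7 and 14 counts, or 0.037 and 0.069 TPM. COL6A1 stood 721-fold above COL6A3 in replicate 1 and 371-fold above it in replicate 2, or 470-fold and 242-fold with the longest coding transcript. In CPM, which takes no account of length, the folds were 185 and 95.4. The close relatives of COL6A3 were also under 1 CPM in both libraries, since COL6A5 had 9 and 14 counts and COL6A6 had 2 and 4.

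The multiplexins were split as well. COL18A1, the source of endostatin and a component of kidney basement membranes, had 761 and 793 counts, or 10.3 and 9.97 TPM. Its value is uncertain because 18.5% of its exonic bases, 1563 in all, are shared with the opposite-strand gene SLC19A1, which had 990 and 1141 counts. COL15A1, the multiplexin of muscle and vessels, had 0 counts in both libraries. COL7A1, which forms the anchoring fibrils that fix the epidermis to the dermis, had 178 and 194 counts and 1.84 ± 0.016 TPM. With these 3 genes added, 16 of 21 basement membrane genes were detected (76.2%, against 65.9% of all protein-coding genes).

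Of the 10 fibril-associated collagens, 3 were detected (30%, against 65.9% of all protein-coding genes) and the median was 0.117 TPM. COL9A3 and COL9A2 are chains of type IX collagen, which coats cartilage fibrils. COL9A3 had 151 counts in each library and 3.45 ± 0.181 TPM. It shares 155 exonic bases with the opposite-strand gene TCFL5, which had 444 and 413 counts. COL9A2 had 55 and 75 counts and 1.70 ± 0.282 TPM. Their partner COL9A1 had 2 and 1 counts. COL14A1 had 34 and 36 counts and 0.379 ± 0.005 TPM. The other 6 stayed under 1 CPM in both libraries, with COL19A1 at 15 and 10 counts, COL21A1 at 7 and 12, COL16A1 at 8 and 10, COL12A1 at 8 and 4, COL20A1 at 4 and 1, and COL22A1 at 0 and 1.

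Of the 4 transmembrane collagens, 3 were detected (75%, against 65.9% of all protein-coding genes). COL25A1, a transmembrane collagen of neurons and muscle, had 194 counts in replicate 1 and 66 in replicate 2, or 2.54 and 0.803 TPM. COL23A1 had 27 and 31 counts and 0.734 ± 0.033 TPM. COL13A1, found at the neuromuscular junction, had 46 and 34 counts and 0.386 ± 0.102 TPM. COL17A1, the collagen of epithelial hemidesmosomes, had 2 and 6 counts. None of the 3 short chain collagens was detected, with COL10A1 of growth plate cartilage at 2 and 5 counts, COL8A1 at 1 and 2, and COL8A2 at 1 and 0. COL26A1 had 86 and 84 counts and 3.03 ± 0.209 TPM, and COL28A1 had 2 and 3 counts.

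At the detection level, COL23A1 and COL5A2 lay just inside, with 27 and 28 counts in their lower library. LAMA2, COL24A1 and COL3A1 lay just outside, with 17, 14 and 14 counts. At such depths a few counts decide the call.

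Heteromeric collagens thus differed in how complete their chains were. Type IV collagen of COL4A1 and COL4A2, type V of COL5A1 and COL5A2, and type VI chains COL6A1 and COL6A2 were detected in both members. Types I, VI, IX and XI each had a partner chain, COL1A2, COL6A3, COL9A1 or COL11A1, at 14 counts or fewer. COL4A3, the partner of COL4A4 and COL4A5, was also not detected, with 21 and 12 counts, and nor was COL5A3, a further type V chain, with 3 in each library. These are levels of RNA, and protein chains were not measured.

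Between the libraries, 24 of the 56 genes averaged at least 50 counts and were compared as log2 of replicate 2 over replicate 1. Of these, 23 lay within 0.5 (95.8%), against 88.3% of all 14704 genes at that depth. COL25A1 was lower in replicate 2 by 1 log2 or more and no gene was higher, against 1.92% of all genes lower and 0.143% higher. Its log2 ratio was -1.54, with a counting interval of -1.99 to -1.16. Among the 2338 genes with a mean count of 100 to 200, 24 were at least as low (1.03%). The other 23 ratios ran from -0.38 for LAMA5 (counting interval -0.476 to -0.281) to 0.42 for COL9A2, with 13 above 0 among all 24. With 1 library on each side there is no replicate check of a single ratio.

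**Figure D4:**
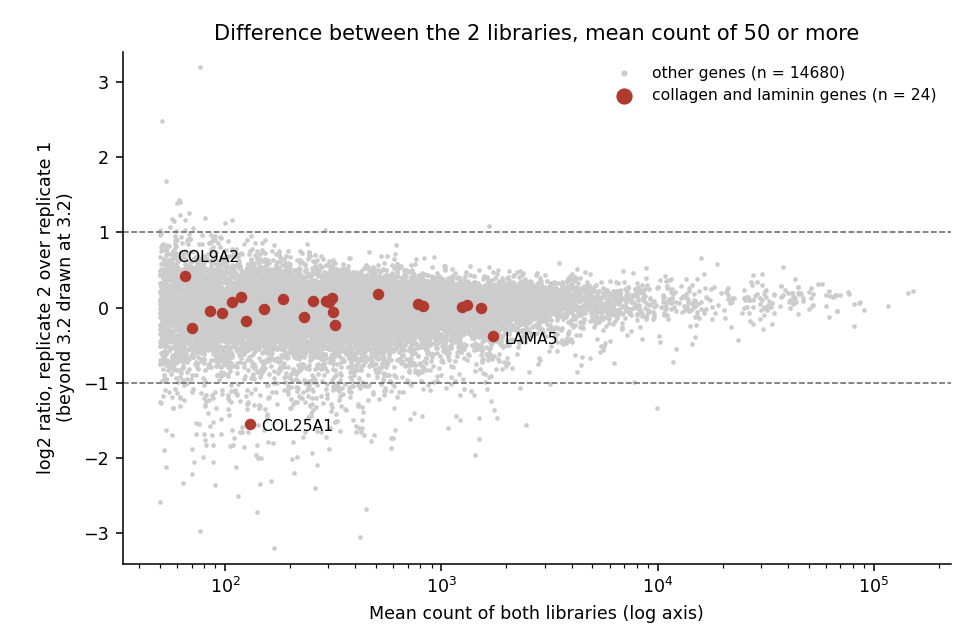
log2 ratio of replicate 2 over replicate 1 (TMM-normalised) against mean count on a log axis, for genes averaging 50 counts or above; red points are collagen and laminin genes, grey points all others, and dashed lines mark 1 log2. COL25A1 at -1.54 is the red point outside the lines, and the other 23 lie between -0.38 and 0.42.

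Promoter sequence was compared in RefSeq windows of GRCh38.p14, from 250 bases before to 50 bases after a start site, which matched 41 of the 56 genes. The 22 detected genes with a window had a median of 29 CpG dinucleotides, and the 19 not detected had 14. Over all protein-coding genes with a window the same medians were 29 for 10375 detected and 7 for 4926 not detected, so the detected members had the median of detected genes in general. The GC box GGGCGG, on either strand, was found in 15 of 22 detected genes (68.2%) and 10 of 19 others (52.6%). Among protein-coding genes it was in 76.2% of detected and 35.8% of undetected genes, and in 45.0% of all 35116 windows. The CCAAT box was in 5 of the 22 (22.7%) and 7 of the 19 (36.8%), against 35.7% and 35.1% of detected and undetected protein-coding genes and 34.6% of all windows. TATAAA was in 3 of the 22 (13.6%) and 3 of the 19 (15.8%), against 4.405% and 18.55% of those genes and 11.5% of all windows, so these shares rest on few genes. Each motif was searched on both strands, and overlap between motifs was allowed.

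Some genes with many CpG were not detected, and some with few CpG were. Whether CpG number goes with level among these genes was not tested. COL15A1 and COL8A2 each had 45 CpG in the window and COL12A1 had 29, with 0 counts, 1 count or fewer and 8 counts or fewer. COL4A6 with 7 CpG and COL4A5 and LAMA4 with 8 were detected at 1.49, 2.94 and 2.71 TPM. LAMB2, among the 3 highest genes, had 15.

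**Figure D5:**
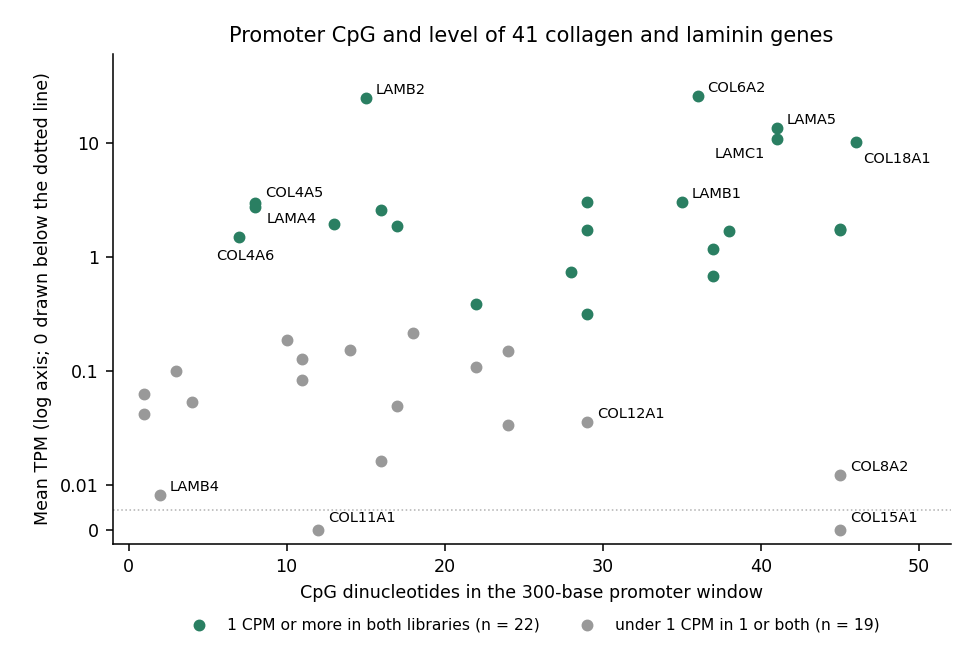
Mean TPM on a log axis against the number of CpG dinucleotides in the promoter window for the 41 genes with a RefSeq window, with values of 0 below the dotted line; green points were detected and grey points were not. Green points run from 7 to 46 CpG and grey points from 1 to 45, and COL15A1 and COL8A2 stand out at lower right with 45 CpG.

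Genes listed for the folding and secretion of collagen stood at a higher median than the collagens. All 19 genes for hydroxylases, glycosyltransferases and chaperones of procollagen were detected, against 65.9% of all protein-coding genes. The median of these 19 was 14.0 TPM against 0.347 for the 44 collagens. HSPA5, the general chaperone of the endoplasmic reticulum, stood at 115 ± 2.26 TPM, and FKBP10, a prolyl isomerase for procollagen, at 73.4 ± 5.11. PPIB, another prolyl isomerase, had 198 ± 14.4 TPM and is uncertain, since 26.6% of its exonic bases also belong to other genes. The lowest were P4HA3, a catalytic subunit of prolyl hydroxylase, at 1.54 ± 0.271 TPM and P3H2 at 0.514 ± 0.057. All 10 genes listed for collagen secretion were detected, with a median of 10.6 TPM. Whether they serve collagen alone or other cargo too was not tested. The 10 genes ran from PREB at 62.5 ± 5.67, SEC13 at 41.2 ± 3.89 and KLHL12 at 28.7 ± 0.278 to MIA2 at 2.67 ± 0.001 and SEC24D at 2.28 ± 0.324 TPM.

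Genes acting on collagen outside the cell were lower. Of 14 genes for propeptide removal and crosslinking, 13 were detected (92.9%, against 65.9% of all protein-coding genes), with a median of 2.44 TPM. LOXL3, a lysyl oxidase, stood at 14.9 ± 2.07 TPM, and the proteinase enhancers PCOLCE2 and PCOLCE at 11.2 ± 1.01 and 9.40 ± 1.68. The values of LOXL3 and PCOLCE are uncertain, since 18.3% and 16.8% of their exonic bases also belong to other genes. TLL2 had 0.428 ± 0.188 TPM and ADAMTS14 had 1 and 7 counts. Of 13 matrix proteinases and their inhibitors, 7 were detected (53.8%). The 3 highest were the inhibitors TIMP1 at 87.0 ± 10.8, TIMP2 at 4.71 ± 0.593 and TIMP3 at 3.90 ± 0.152 TPM, while the collagenase MMP8 and the stromelysin MMP3 had 0 counts.

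Of 14 other basement membrane genes, 10 were detected (71.4%, against 65.9% of all protein-coding genes), with a median of 1.30 TPM. NID1, which links laminin to type IV collagen, stood at 15.4 ± 1.30 TPM, SMOC1 at 10.2 ± 0.413 and the heparan sulfate proteoglycan AGRN at 8.40 ± 0.706. FREM1 had 2 and 3 counts. Of 15 receptors for collagen and laminin, 11 were detected (73.3%, against the same 65.9%), with a median of 0.954 TPM. DAG1, the dystroglycan that binds laminin, stood at 14.4 ± 1.04 TPM, ITGB1, the beta chain shared by the collagen and most laminin integrins, at 7.52 ± 0.362, and ITGA7, a laminin-binding alpha chain, at 7.39 ± 0.493. The platelet receptor GP6 had 1 count in each library and the leukocyte receptor LAIR1 had 0. Over these lists and the HEK293T and fibroblast lists, 76 of 104 genes averaged at least 50 counts. Of the 76, 1 was lower in replicate 2 by 1 log2 or more, FREM2 with 97 and 45 counts. The share of such genes was 1.92% among all genes at that depth.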

How the data were processed

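Per the labels' protocols, TRIzol RNA was treated with DNase I, reverse transcribed from an oligo(dT) primer, and the sheared cDNA was ligated as single strands. The deposited values are raw counts per gene, not normalised by the authors. Tools named in the submitters' processing notes are featureCounts 2.0.3, bcl2fastq 2.17 and Trim Galore 0.6.7, with the build GRCh38. How reads were aligned, which annotation was used and whether counting used strand is not given in the sources used here, so genes sharing exonic bases with another are uncertain.

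CPM and TPM were computed from the counts, their totals and the deposited merged exon lengths. Gene types and longest coding transcripts came from GENCODE 29, and exon overlap from bedtools 2.31.1. Of the 60664 IDs, 60463 matched a symbol. Ratios used edgeR 4.0.16 (TMM factors 1.01 and 0.989, prior count 2). DESeq2 1.42.0 was an alternative. Scripts were tested on simulated data. No test between groups was possible with 1 group. The spread between libraries was 15.6% (edgeR, 18315 genes, 1 residual degree of freedom). The tool names this value a biological coefficient of variation, but the spread may be technical, since separate cultures are not stated.

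The members and lists were chosen with earlier results of these data known. Detected members are named with values, the others by counts, and in each related list the 3 highest and 2 lowest by TPM. FREM2, FBN1, PDGFRA, PDGFRB, DCN and FAP fall outside that rule and were chosen after their values were seen. Where a gene had more than 1 promoter window (9 members), the window with the most CpG was used. Members without a promoter window included COL1A1, COL1A2, COL2A1, COL3A1, COL5A2, COL6A1, COL6A5, COL8A1, COL9A3, COL14A1, COL20A1, COL22A1, LAMA1 and LAMC3. Some genes that the rule takes are in the counts and medians but are not reported here.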

Additional observations from a re-analysis of the deposited data

How the results depend on the processing

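The lower median of fibrillar than of type IV and laminin genes kept its direction under every alternative tried. It was -1.68 on log2(mean TPM + 0.1), -0.862 with a pseudocount of 1, -2.505 in CPM, -2.02 with the longest coding transcript and -0.535 among detected genes alone. Leaving out a library gave -1.63 to -1.47. Against the median of all protein-coding genes, fibrillar genes stood at -2.49, at -1.44 with a pseudocount of 1 and at -2.81 with the longest coding transcript (without 1 library, -2.44 to -2.30). Type IV genes stood at -0.808, with -0.576, -0.523 and, in CPM, 0.112 in the opposite direction (-0.834 to -0.807). Laminins stood at -1.08, with -0.724, -1.10 and, in CPM, -0.002 (-1.09 to -1.06). CPM takes no account of length, and the median summed exon length was 9172 bases for the 56 genes against 4360 for protein-coding genes. The share of counts was 0.0629%, or 0.0695% of the counts of protein-coding genes (0.0608 to 0.0649 without 1 library). Genes past 1 log2 between libraries numbered 1, or 2 at a mean count of 10 (COL3A1 added), 3 with no filter (COL20A1 added) and 0 at 200. Detected genes numbered 31, from 21 at 1 TPM to 36 at 0.5 CPM or 10 counts, and 31 to 34 by 1 library. Of 15 chain ratios, the log2 ratio of COL4A1 over COL4A2 (0.0237) became -0.371 in CPM, -0.3975 with the longest coding transcript and -0.0809 without replicate 1 (0.1283 without replicate 2). COL6A1 over COL6A2 (0.0308) became -0.208 with the longest coding transcript, and LAMA5 over LAMB2 (-0.887) became 0.171 in CPM. Within a library, these measures of a chain ratio differ only in the gene length used. The summed exon length was 14291 bases for LAMA5 and 6865 for LAMB2, and 14662 for COL4A1 and 19271 for COL4A2. Why COL4A1 over COL4A2 differed between the libraries was not tested. No gene shared 25% of its exonic bases, so that alternative removed none. No paired analysis was possible because the labels give 1 group. The protein table foreseen for sequence comparison was not used here. About 18 counts made 1 CPM, which limits what can be said of genes near that level.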
